A study of Mus musculus with 8 samples.

Results

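The 10 genes of the circadian clock and its direct output listed here were examined in the striatum, taken from the deposited gene table by their symbols: Arntl, Per1, Per2, Per3, Ciart, Bhlhe41, Nr1d1, Nr1d2, Dbp and Tef. The table holds 55032 genes, 18294 of which had enough counts to be tested, and all 10 clock genes were among them. Striatum came from female mice on the B6/C57 background at postnatal day 60, from 4 WT mice and 4 mice heterozygous for a deletion on chromosome 7 (16p11.2+/-) that models the human 16p11.2 deletion. The 16p11.2+/- mice came from 1 line obtained from the Jackson Laboratory, and no treatment is stated for any of the 8 mice. One library of total RNA was sequenced per mouse, and mice are named below by genotype and number, with DF for 16p11.2+/-. The housing was under a light-dark cycle, and the clock time at which each mouse was killed is not given in the sources used here.

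The molecular clock is a feedback loop of transcription. The protein of Arntl, also called BMAL1, pairs with CLOCK or NPAS2, binds the E-box sequence CACGTG and switches on the Per and Cry genes, whose proteins then inhibit the pair, and the same pair drives Nr1d1, Nr1d2, Dbp, Tef, Ciart and Bhlhe41. REV-ERB alpha and beta, the proteins of Nr1d1 and Nr1d2, repress Arntl through a sequence called the RRE, so that over a day Arntl RNA in most tissues is high when Per and Dbp RNA is low. Between mice killed at different times of day this opposition shows as an inverse relation, and the comparisons here ask whether such a relation is present among these mice and whether the clock genes differ between genotypes.

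The upstream sequence of these genes is shown first because members of the loop are known to act on one another through it. RefSeq windows of the 250 bases before each annotated start (build GRCm38.p6) were matched by symbol for 9 of the 10 genes, all but Per2, in 12 windows. The E-box CACGTG, which reads the same on both strands, was in 5 of the 12 windows, those of Ciart, Bhlhe41, 1 of the 2 starts of Per1 and both starts of Tef, and in 6.02% of all 32851 windows. The window of the first Tef start began inside an annotated exon, so its E-box is not printed below. The D-box TTATGTAA or TTACGTAA, the sequence bound by DBP and TEF, was searched on both strands and was in the window of Per3 and in 0.931% of all windows. The RRE, spelled ANTAGGTCA or ANTGGGTCA and searched on both strands, was in none of the 12 windows and in 1.21% of all windows. No searched motif overlapped another, and a match describes letters in this window only.

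Ciart (chr3:95882252-95882478, minus strand) carried 3 E-boxes and Per3 (chr4:151044666-151044915, minus strand) carried 2 D-boxes, so both upstream stretches are printed up to the first annotated exon, 5′ to 3′, with the motifs in capitals. The single E-boxes of Per1 (chr11:69098771-69098800, plus strand), Tef (chr15:81811264-81811293, plus strand, second start) and Bhlhe41 (chr6:145865559-145865585, minus strand) are printed with the bases on either side.
Ciart: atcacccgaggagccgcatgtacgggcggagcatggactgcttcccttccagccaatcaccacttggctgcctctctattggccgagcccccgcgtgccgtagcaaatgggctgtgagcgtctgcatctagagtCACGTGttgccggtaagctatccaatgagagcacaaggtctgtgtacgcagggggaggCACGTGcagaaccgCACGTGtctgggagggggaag
Per3: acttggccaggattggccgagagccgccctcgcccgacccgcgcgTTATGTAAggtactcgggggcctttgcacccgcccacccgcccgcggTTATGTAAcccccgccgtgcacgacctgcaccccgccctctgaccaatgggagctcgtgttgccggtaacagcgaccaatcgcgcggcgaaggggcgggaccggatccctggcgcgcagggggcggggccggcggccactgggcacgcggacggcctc
Per1: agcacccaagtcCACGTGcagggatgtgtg
Tef: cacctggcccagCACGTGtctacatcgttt
Bhlhe41: tggtacgttccgCACGTGagctgggtg

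**Figure D1:**
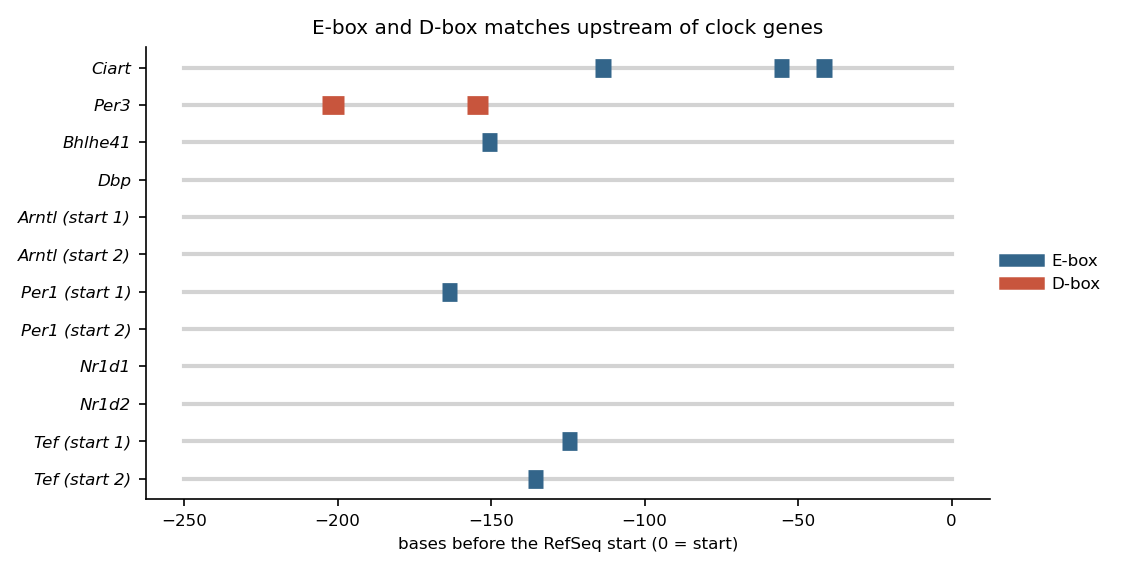
Matches to the E-box (blue) and the D-box (red) in the 250 bases before each RefSeq start of 9 clock genes, with the distance from the start in bases on the horizontal axis. Ciart has 3 E-boxes and Per3 has 2 D-boxes, and the windows of Dbp, Arntl, Nr1d1 and Nr1d2 hold neither motif.

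Before the clock genes are compared, 3 facts about the libraries are needed. Counted reads per mouse ran from 15125051 to 16523429 over both genotypes. The mean log2 CPM (reads of a gene relative to the library, with TMM factors) of 15 genes of the deleted segment was 5.0 to 5.34 in WT and 4.03 to 4.48 in 16p11.2+/- mice, with no overlap, which fits the labels. All 9 marker genes of medium spiny neurons, the main cell type of the striatum, were detected in every mouse, but their mean log2 CPM was 6.71 in DF-1037 and 6.27 in DF-1062 against 8.07 to 8.83 in the other 6 mice. The dopamine receptor gene Drd1, 1 of these markers, had an FPKM of 18.3 in DF-1037, 14.6 in DF-1062 and 47.9 to 78.1 elsewhere. Markers of thalamus, which lies next to the striatum, averaged 5.23 to 6.24 log2 CPM in WT-1063, DF-1018, DF-1037 and DF-1062 and 2.96 to 3.52 in the other 4 mice. Markers of hypothalamus averaged 2.81 log2 CPM in DF-1062 and -1.99 to -0.13 in the other 7 mice. In DF-1062 the hormone genes Oxt and Avp had an FPKM of 108 and 59.5, and Avp was at most 2.37 in the other mice. The same list covers the suprachiasmatic nucleus, which holds the master clock, and does not separate it from the rest of the hypothalamus. Six6 was at 0.423 in DF-1062 and at most 0.016 elsewhere. Vip was at 2.35 in DF-1062 and 0.218 to 4.41 elsewhere. Avp and Six6 were thus highest in DF-1062 and Vip was not. Whether this piece held suprachiasmatic tissue was not tested. The tissue pieces of DF-1037 and DF-1062 were thus the lowest in medium spiny neuron markers. Values without both are given beside the genotype comparisons, the spread and the correlations of the clock genes. The other 6 pieces were not alike either. Markers of cortical neurons averaged from 1.43 log2 CPM in DF-1018 to 5.91 in WT-1041 among them. Those of choroid plexus averaged from 0.49 in WT-1041 to 7.5 in WT-1063. In such bulk RNA, fewer cells of a type and less RNA per cell cannot be told apart.

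None of the 10 clock genes differed between genotypes past the threshold. The fitted level of each gene was lower in the 16p11.2+/- mice. The log2 fold changes lay between -0.29 and -0.03 with a median of -0.13, beside a median of -0.01 over all tested genes, of which 51.8% had a negative value. edgeR's quasi-likelihood test with Benjamini-Hochberg adjustment over all tested genes called 0 of the 10, with adjusted p from 0.859 to 0.956, and it called 0.109% of all tested genes. At an unadjusted p under 0.05 it held 0 of the 10, against 4.32% of tested genes. DESeq2 called 0 of the 10 as well, against 0.142% of genes called among those it gave an adjusted p. At an unadjusted DESeq2 p under 0.05 were 0 of the 10, and the share over all genes at that limit is not given here. FPKM (counts scaled by gene length and by the counted reads of the mouse) overlapped between genotypes for all 10, while 2.83% of tested genes had groups that did not overlap. Without DF-1037 and DF-1062 the fitted difference was above 0 for 7 of the 10, all but Per1, Nr1d1 and Bhlhe41. This fit left DF-1018 and DF-1059 against the 4 WT mice and called 0 of the 10, with 11 called over all tested genes. Of the 7, Nr1d2 (0.014), Per2 (0.051) and Arntl (0.063) lay nearest to 0. The share of all tested genes above 0 in this fit is not given here. With 4 mice against 4, the exact two-sided permutation test used for single genes below cannot give a p under 0.0286.

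**Figure D2:**
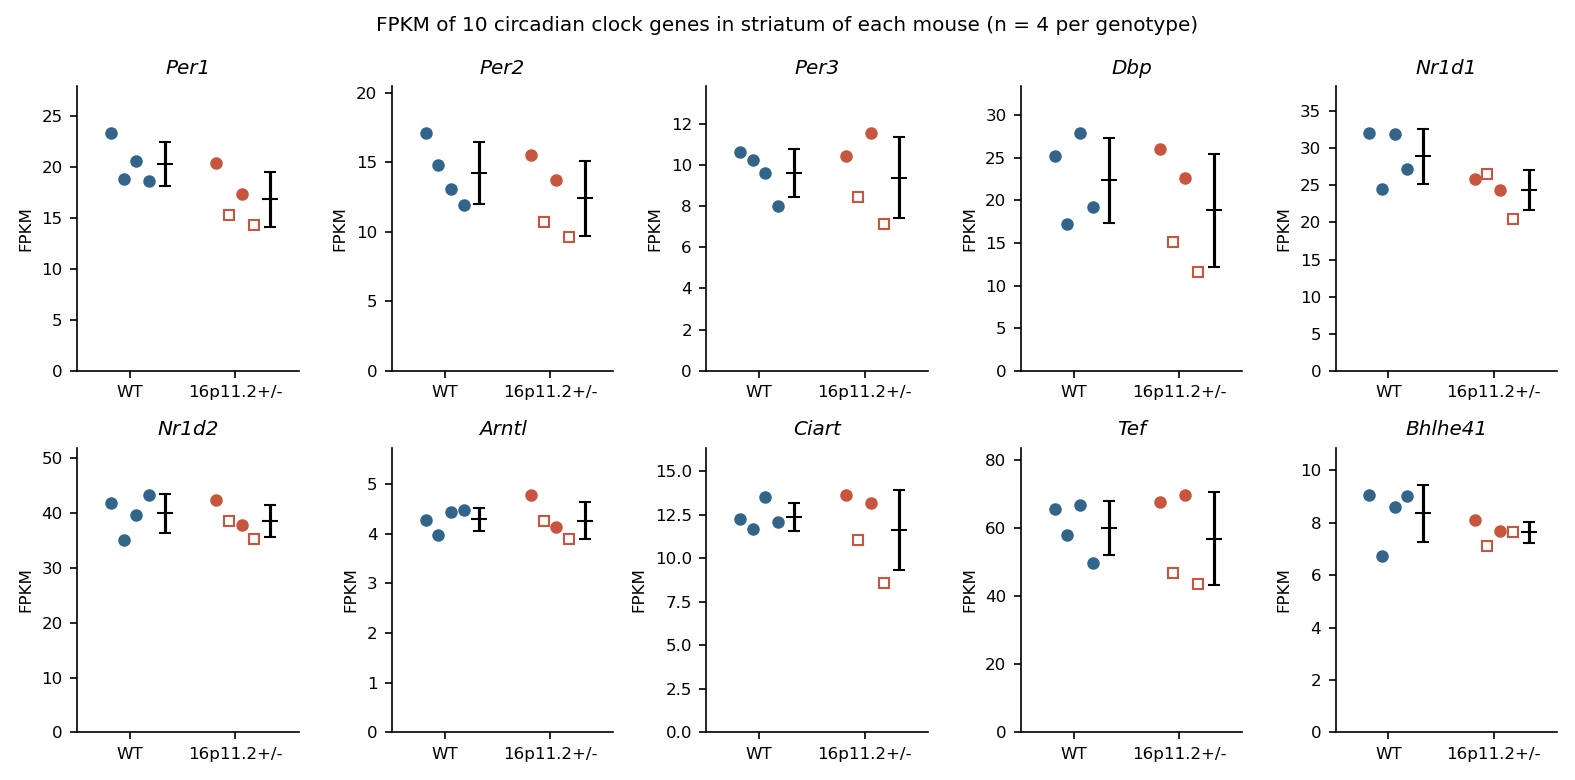
FPKM of the 10 clock genes in the striatum of each mouse, with WT in blue, 16p11.2+/- in red and the mean ± SD of 4 mice in black. Open squares are DF-1037 and DF-1062, the mice with the lowest medium spiny neuron score, and the genotypes overlap in every panel.

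Arntl, the positive arm of the loop, lies on chr7:113207465-113314126 (GRCm38, plus strand), outside the deleted segment. Its FPKM was 4.28, 3.97, 4.43 and 4.48 in WT-1015, WT-1041, WT-1061 and WT-1063. In DF-1018, DF-1037, DF-1059 and DF-1062 it was 4.78, 4.25, 4.14 and 3.89. Both the highest and the lowest mouse were 16p11.2+/-, and the means were 4.29 ± 0.23 in WT and 4.27 ± 0.37 in 16p11.2+/- (SD, n = 4 each). The log2 fold change was -0.03 with a standard error of 0.10 and a 95% interval from -0.25 to 0.20 (exact permutation p = 0.886). It was 0.06 without DF-1037 and DF-1062 and 0.05 without DF-1062 alone. Arntl was the clock gene with the smallest range, the highest mouse standing 1.23 times above the lowest.

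The Per genes encode the PERIOD proteins of the negative arm. Per1 (chr11:69095217-69109960, plus strand) had an FPKM of 23.3, 18.8, 20.6 and 18.6 in the WT mice in the order above. Its FPKM in the 16p11.2+/- mice was 20.4, 15.3, 17.3 and 14.3. In 3 of 4 16p11.2+/- mice the value was under the lowest WT value, and DF-1018 lay inside the WT range. The means were 20.3 ± 2.16 and 16.8 ± 2.70, and the log2 fold change of -0.29 ± 0.14 (SE) was the largest of the 10, with a 95% interval from -0.61 to 0.03 (exact permutation p = 0.114). Without the 2 mice of low medium spiny neuron score it was -0.10.

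Per2 (chr1:91415982-91459324, minus strand) had an FPKM of 17.1, 14.8, 13.1 and 11.9 in WT and 15.5, 10.7, 13.7 and 9.59 in 16p11.2+/- mice. DF-1037 and DF-1062 were below all WT mice and the other two were inside the WT range. The log2 fold change was -0.21 ± 0.19 (SE), with an interval from -0.63 to 0.21 (exact permutation p = 0.371), and 0.05 without these 2 mice. Per3 (chr4:151003652-151044665, minus strand), whose upstream D-boxes are printed above, had an FPKM of 10.6, 10.2, 9.62 and 8.0 in WT and 10.4, 8.43, 11.5 and 7.13 in 16p11.2+/- mice. The 16p11.2+/- mice held both ends of the range. Its log2 fold change was -0.05 ± 0.17 (SE; exact permutation p = 0.886) and 0.20 without DF-1037 and DF-1062.

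Ciart and Bhlhe41 encode further repressors of the loop, Ciart (CHRONO) acting on the CLOCK and BMAL1 pair and Bhlhe41 (DEC2) competing at the E-box. Ciart (chr3:95878503-95882251, minus strand) had an FPKM of 12.3, 11.7, 13.5 and 12.1 in WT and 13.6, 11.1, 13.2 and 8.59 in 16p11.2+/- mice. The WT mice fell within a narrow band, with a mean of 12.4 ± 0.81 (SD, n = 4), and DF-1062 stood well below it. The log2 fold change was -0.11 ± 0.16 (SE; exact permutation p = 0.657), 0.04 without DF-1062 and 0.12 without DF-1037 as well. Bhlhe41 (chr6:145858243-145865558, minus strand) had an FPKM of 9.06, 6.73, 8.61 and 9.02 in WT and 8.09, 7.13, 7.70 and 7.64 in 16p11.2+/- mice. The 3 WT mice other than WT-1041 lay above all 16p11.2+/- values, and WT-1041 was the lowest of all 8. The log2 fold change was -0.15 ± 0.11 (SE; exact permutation p = 0.229) and -0.07 without DF-1037 and DF-1062. Gm43909 on the other strand shares 19.0% of the exon bases of Bhlhe41, and the strand setting of the counting is not stated.

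Nr1d1 and Nr1d2 encode REV-ERB alpha and beta, the nuclear receptors that repress Arntl. Nr1d1 (chr11:98767932-98775333, minus strand) had an FPKM of 32.0, 24.6, 31.9 and 27.1 in WT and 25.9, 26.6, 24.3 and 20.5 in 16p11.2+/- mice. The other 3 WT mice were above all 16p11.2+/- values, and WT-1041 lay among these. The log2 fold change was -0.27 ± 0.13 (SE), with an interval from -0.57 to 0.03 (exact permutation p = 0.114), and -0.20 without DF-1037 and DF-1062. Thra on the other strand shares 8.55% of the exon bases of Nr1d1. Nr1d2 (chr14:18204054-18239127, minus strand) had an FPKM of 41.8, 35.0, 39.7 and 43.3 in WT and 42.3, 38.6, 37.9 and 35.3 in 16p11.2+/- mice, so that no 16p11.2+/- value was under the lowest WT value. Its log2 fold change was -0.07 ± 0.10 (SE; exact permutation p = 0.514) and 0.01 without DF-1037 and DF-1062.

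Dbp and Tef encode related transcription factors that carry the rhythm to other genes through the D-box. Dbp (chr7:45705088-45710203, plus strand, outside the deleted segment) had an FPKM of 25.2, 17.2, 27.8 and 19.2 in WT mice. In 16p11.2+/- mice it was 26.0, 15.2, 22.6 and 11.6. In each genotype 2 mice were high and 2 were lower, and the highest mouse, WT-1061, stood 2.41 times above the lowest, DF-1062, the widest range of the 10 genes. The means were 22.4 ± 4.97 and 18.8 ± 6.62 (SD, n = 4 each), and the log2 fold change of -0.26 ± 0.28 (SE) had an interval from -0.89 to 0.37 (exact permutation p = 0.429). It was 0.13 without DF-1037 and DF-1062. Sphk2 on the other strand shares 18.0% of the exon bases of Dbp. Tef (chr15:81802421-81826863, plus strand) had an FPKM of 65.5, 57.8, 66.7 and 49.8 in WT and 67.6, 46.9, 69.7 and 43.4 in 16p11.2+/- mice, with the 16p11.2+/- mice at both ends. Its log2 fold change was -0.09 ± 0.19 (SE; exact permutation p = 0.743) and 0.20 without the same 2 mice.

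**Figure D3:**
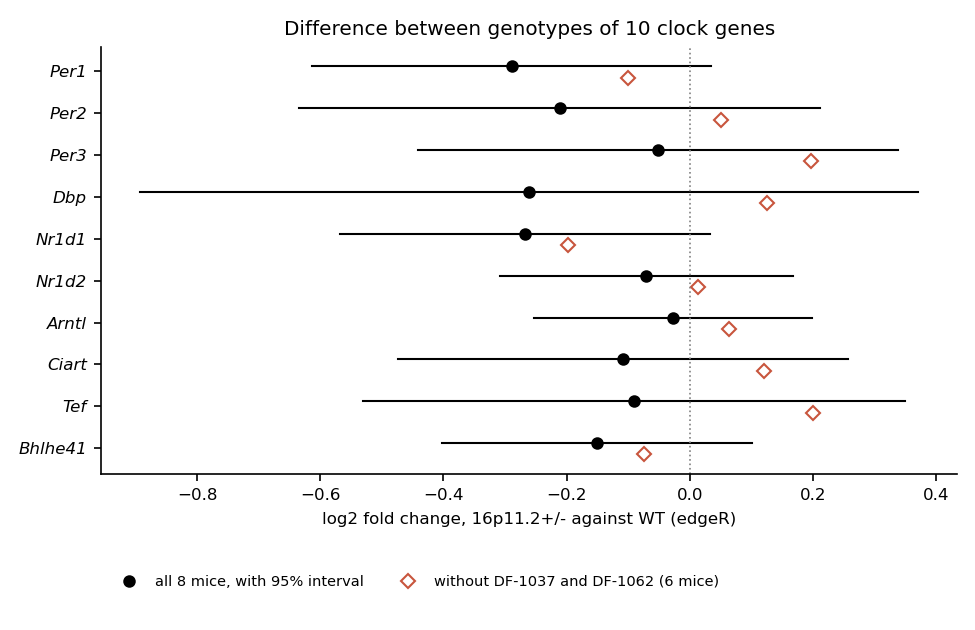
Log2 fold change of each clock gene in 16p11.2+/- against WT striatum by edgeR, with the 95% interval, for all 8 mice (black) and the value for 6 mice without DF-1037 and DF-1062 (red). The red points compare DF-1018 and DF-1059 with all WT mice and carry no interval. All 10 black points lie below 0 with intervals that cross it, and 7 of the 10 red points lie above 0.

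The order of the levels over the 8 mice, by mean FPKM, ran from Tef at 58.4 ± 10.4 (SD) through Nr1d2 at 39.2 ± 3.12, Nr1d1 at 26.6 ± 3.86, Dbp at 20.6 ± 5.74, Per1 at 18.6 ± 2.93, Per2 at 13.3 ± 2.50, Ciart at 12 ± 1.66, Per3 at 9.50 ± 1.5 and Bhlhe41 at 8.0 ± 0.86 to Arntl at 4.28 ± 0.29. Ranges of neighbours in this order were apart only between Tef and Nr1d2, between Nr1d2 and Nr1d1 and between Bhlhe41 and Arntl. Per1 was above Per2 in each of the 8 mice, by 1.26 to 1.58 times, although their ranges over mice overlapped. Per2 and Ciart changed places between mice, with Per2 higher in 5 of 8.

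The spread between mice of 1 genotype, as the SD of log2 CPM, had a median of 0.242 over the 10 genes and 0.250 over all tested genes. Without DF-1037 and DF-1062 these were 0.178 and 0.201, and without DF-1062 alone 0.186 and 0.230. The order of the 2 medians was not stable. On log2(FPKM + 1) they were 0.194 and 0.166, without DF-1037 alone 0.261 and 0.233, and without WT-1063 0.256 and 0.236. Dbp varied most, with an SD of 0.474, higher than that of 79.2% of tested genes. Arntl varied least, with 0.135, at 22.1%. Counts of the 10 genes ran from 321 (Ciart in DF-1062) to 8911 (Tef in DF-1059) per mouse.

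In 5 of the 8 mice nearly all clock genes lay on the same side of their mean, and in the other 3 they were split. DF-1062 had the lowest FPKM of all 8 mice for 8 of the 10 genes, the exceptions being Nr1d2 and Bhlhe41, for which WT-1041 was lowest. The mean deviation from each gene's average was -0.44 log2 in DF-1062 and -0.16 in DF-1037, against 0.23 in WT-1015, 0.20 in DF-1018 and 0.18 in WT-1061. It was near 0 in WT-1041 (-0.053), WT-1063 (-0.018) and DF-1059 (0.062), where 6, 4 and 5 of the 10 genes were below their mean. In WT-1063, for example, Per3 was at -0.23 and Bhlhe41 at 0.18. In both DF-1037 and DF-1062, Per1, Per2, Dbp, Ciart and Tef were below all 6 other mice, 5 of the 10 clock genes, while 9.46% of tested genes were so. All 45 pairs of clock genes had a positive Pearson r of log2 CPM over the 8 mice, from 0.22 for Per3 with Bhlhe41 to 0.94 for Dbp with Ciart, with a median of 0.75. Over the 6 mice without DF-1037 and DF-1062, 40 of the 45 pairs were positive, the median was 0.40 and Per3 with Bhlhe41 was at -0.33. With Dbp, r was above 0 for 9 of the 9 others, against 48.8% of tested genes, and at least 0.9 for Ciart and Tef, 2 of the 9, against 2.84%. Without DF-1037 and DF-1062 r with Dbp was above 0 for all 9, from 0.36 for Per2 to 0.88 for Ciart. Among these 6 mice the medium spiny neuron score still differed, from 8.07 to 8.83 log2 CPM. Both this score and Dbp were highest in WT-1061 and lowest in WT-1041 and WT-1063. Whether tissue content accounts for these relations was not tested.

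**Figure D4:**
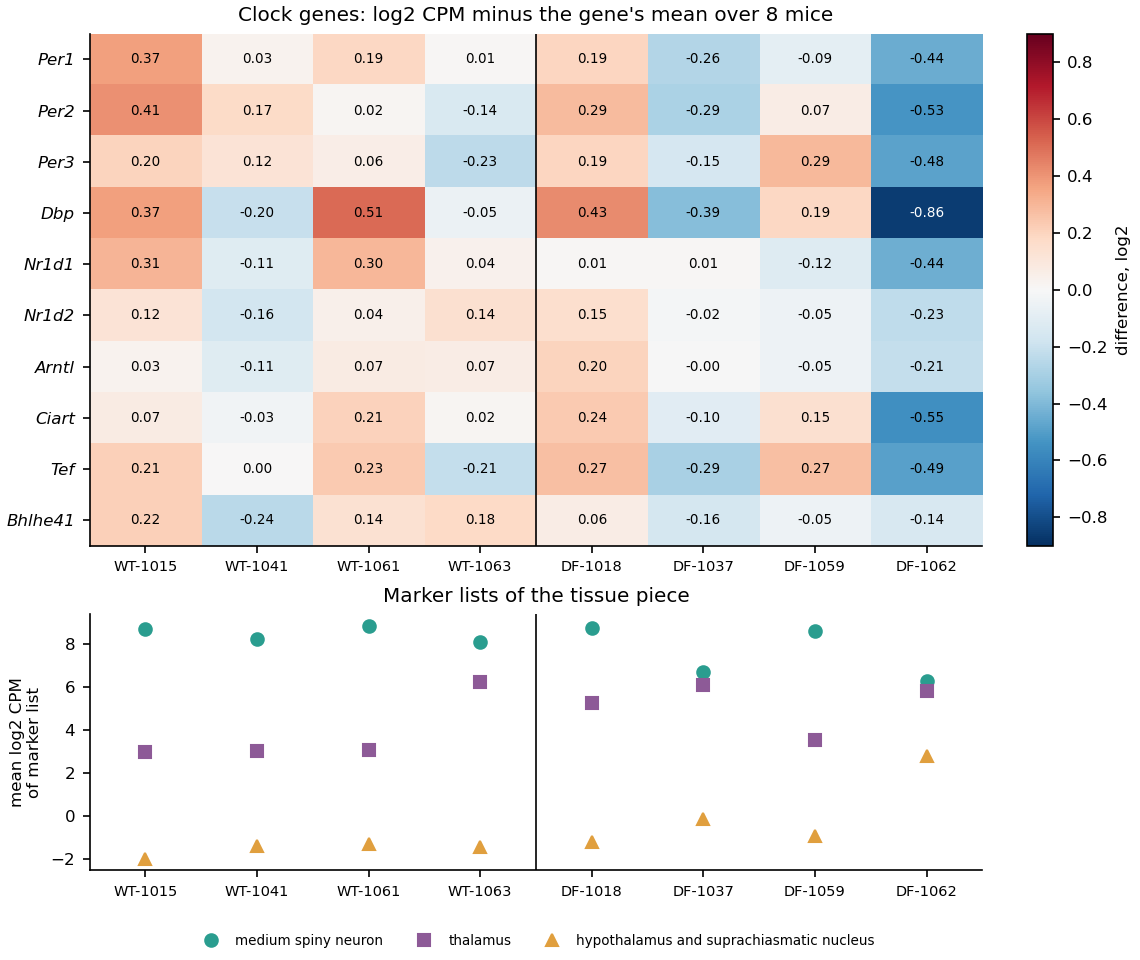
Upper panel, log2 CPM of each clock gene in each mouse minus the gene's mean over the 8 mice, blue below and red above the mean. Lower panel, mean log2 CPM of the marker lists of medium spiny neurons, thalamus and hypothalamus in the same mice, where DF-1062, the mouse with 10 of 10 clock genes below their mean, has the lowest medium spiny neuron value (6.27) and the highest hypothalamus value (2.81).

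An inverse relation of Arntl to its targets was not seen. Such a relation shows between mice killed at different times of day, and these times are not given. Its absence here therefore cannot show whether the loop had this opposition. Pearson r of log2 CPM with Arntl over the 8 mice was positive for 9 of the 9 other clock genes, while 49.0% of all tested genes had a negative r. It was 0.70 for Per1, 0.57 for Per2, 0.47 for Per3 and 0.80 for Dbp (exact permutation p = 0.0535, 0.135, 0.238 and 0.0172), and Spearman's rho was 0.67, 0.38, 0.19 and 0.81 (permutation p = 0.0831, 0.360, 0.665 and 0.0218). The repressors of Arntl gave 0.92 for Nr1d2 and 0.70 for Nr1d1 (exact permutation p = 0.000322 and 0.0530), with rho of 0.93 and 0.76 (permutation p = 0.00223 and 0.0368). For Ciart, Bhlhe41 and Tef, r was 0.82, 0.67 and 0.60 (exact permutation p = 0.0131, 0.0707 and 0.119), and rho was 0.79, 0.64 and 0.48 (permutation p = 0.0279, 0.0962 and 0.243). Before adjustment 3 of the 9 had a permutation p of r under 0.05, beside 1838 of the 18293 genes related to Arntl. After Benjamini-Hochberg adjustment over these relations, the permutation p of the 9 lay between 0.223 and 0.655, and 0% of all genes passed.

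These relations were read again with mice left out, with values centred on genotype and with another scaling. Without DF-1062 alone, r with Arntl was 0.43 for Per1, 0.18 for Per2, -0.058 for Per3 and 0.60 for Dbp. It was 0.39 for Nr1d1, 0.865 for Nr1d2, 0.62 for Ciart, 0.27 for Tef and 0.64 for Bhlhe41. Without DF-1018 and DF-1062, the mice farthest from the median of Arntl, r was -0.19 for Per2, -0.44 for Per3 and -0.03 for Tef (exact permutation p = 0.717, 0.379 and 0.967). For these 3 genes r was thus no longer positive. Leaving out the extremes of Arntl also narrows its range, so these values cannot show what the relation rested on. The value was 0.36 for Per1, 0.50 for Dbp, 0.37 for Ciart, 0.76 for Nr1d1, 0.90 for Nr1d2 and 0.86 for Bhlhe41 (exact permutation p = 0.489, 0.312, 0.461, 0.0917, 0.0153 and 0.0347). Without DF-1037 and DF-1062, r was -0.16 for Per3, 0.11 for Per2, 0.45 for Per1, 0.66 for Dbp and 0.86 for Nr1d2 (exact permutation p = 0.736, 0.857, 0.376, 0.156 and 0.0236). For Nr1d1, Tef, Ciart and Bhlhe41 it was 0.37, 0.22, 0.68 and 0.64 (exact permutation p = 0.476, 0.66, 0.131 and 0.179). Centred on the genotype means, r stayed positive for all 9, from 0.46 for Per3 to 0.93 for Nr1d2 (permutation p within genotype, 0.412 and 0.0104). The size of r also depended on the scaling. With library totals in place of TMM factors all 9 were positive but lower. Per1 was then at 0.55, Per2 at 0.38, Per3 at 0.24, Dbp at 0.69 and Nr1d2 at 0.88. The TMM factor was 1.059 in DF-1062 and 0.973 to 1.003 in the other mice.

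**Figure D5:**
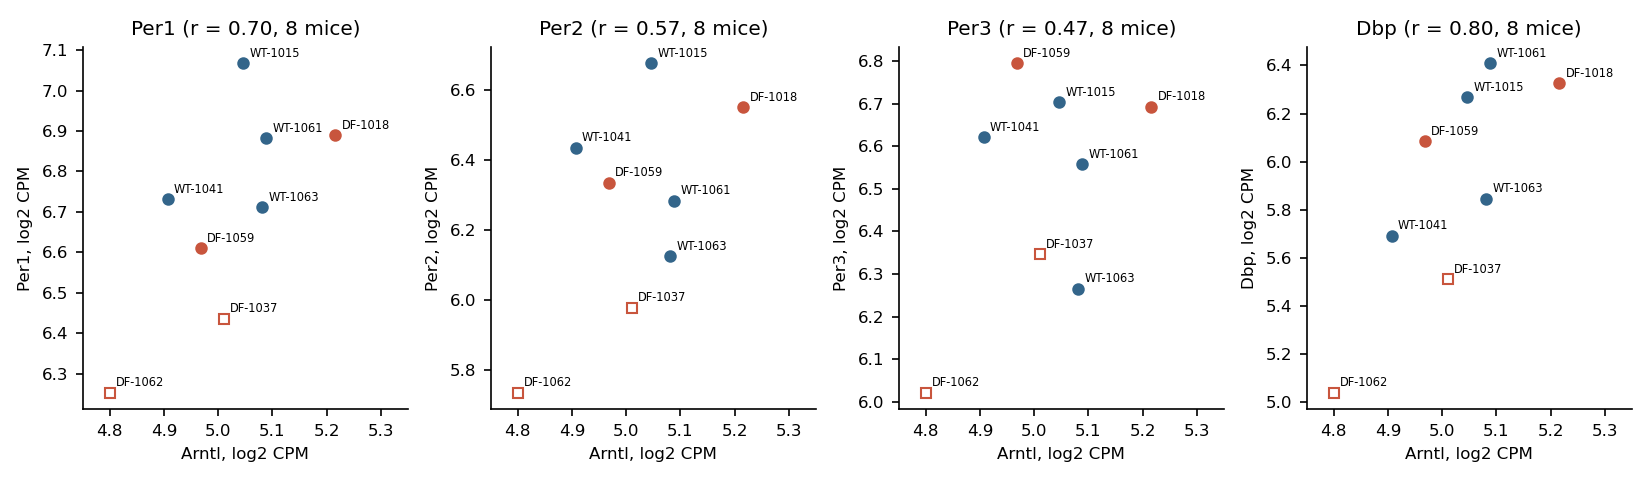
Log2 CPM of Per1, Per2, Per3 and Dbp against that of Arntl in each of the 8 mice, with WT in blue, 16p11.2+/- in red and open squares for DF-1037 and DF-1062. The points rise from DF-1062 at the lower left, with r of 0.70, 0.57, 0.47 and 0.80, and no panel shows a falling relation over the 8 mice.

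Within a genotype there were only 4 mice, for which the order is given without a coefficient. In WT, WT-1041 was lowest and WT-1061 highest for both Arntl (4.91 and 5.09 log2 CPM) and Dbp. By FPKM, WT-1063 was highest for Arntl at 4.48, just above WT-1061 at 4.43. Per1, Per2 and Per3 had another order in WT, each lowest in WT-1063 and highest in WT-1015, while Arntl was second highest in WT-1063 at 5.08 log2 CPM. In 16p11.2+/-, DF-1062 was lowest and DF-1018 highest for both (Arntl at 4.80 and 5.22 log2 CPM), and so for Per1 and Per2, while Per3 was lowest in DF-1062 and highest in DF-1059. Over all mice Arntl spanned 0.42 log2 units and Dbp spanned 1.37. Arntl minus the mean of Per1, Per2, Per3 and Dbp, a difference of log2 CPM that is compared between mice only, ran from -1.63 to -1.16 in WT (mean -1.42 ± 0.20 SD) and from -1.49 to -0.96 in 16p11.2+/- mice (mean -1.23 ± 0.26 SD). The genotypes overlapped, and the 2 highest values, -1.06 and -0.96, were those of DF-1037 and DF-1062.

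The genes whose pattern over the 8 mice was most like that of Dbp, among tested genes with a mean of at least 1 log2 CPM, were Zfp626 (r = 0.99), Epb41 (0.99), Enpp4 (0.99), 4833415N18Rik (0.98) and Cenpj (0.98). For Arntl they were Shank3 (r = 0.98), Gtf2a1 (0.98), Ccnh (0.98), Rmnd5a (0.97) and Ppm1b (0.97). These are descriptions over 8 mice that share the tissue differences given above. The clock gene most like Dbp was Ciart at 0.94, and the one most like Arntl was Nr1d2 at 0.92.

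Of 24 other genes of the clock pathway, all 24 were tested and edgeR called 0 higher and 0 lower in 16p11.2+/- striatum, with 1 at an unadjusted p under 0.05 (4.32% of all tested genes) and 0 called by DESeq2. Their log2 fold changes were negative for 11 and positive for 13, with a median of 0.03. Without DF-1037 and DF-1062 edgeR again called 0, and 11 were negative and 13 positive with a median of 0.03. Genes changed sign in both directions, however, such as Npas2 from -0.25 to 0.13 and Nfil3 from 0.24 to -0.21. Among genes of this list with the smallest p over all 8 mice was Arntl2, the close relative of Arntl, at 0.42 ± 0.18 (SE). Others were Fbxl21, a ubiquitin ligase part that acts on CRY proteins, at 0.35 ± 0.17, and Fbxw11, a ligase part that acts on PER proteins, at 0.13 ± 0.07. All 3 had an adjusted p of 0.859 by edgeR's quasi-likelihood test with Benjamini-Hochberg adjustment. FPKM of Arntl2 was 1.33 to 1.89 in WT and 1.67 to 2.79 in 16p11.2+/- mice, which overlapped. Without DF-1037 and DF-1062 the log2 fold changes of Arntl2, Fbxl21 and Fbxw11 were 0.24, 0.51 and 0.07. The r with Dbp over 8 mice ran in this list from -0.95 to 0.89. Its ends, named after their values were seen, were Csnk1d, a kinase of PER proteins, at -0.95 and Npas2, the partner of BMAL1 in forebrain, at 0.89. Nfil3, the repressor that competes with DBP at the D-box, also seen afterwards, stood at -0.92. FPKM of Nfil3 was 3.12 in DF-1037 and 3.41 in DF-1062, above the 1.35 to 2.54 of the other 6 mice. Without these 2 mice r with Dbp was -0.83 for Csnk1d, 0.49 for Npas2 and -0.89 for Nfil3.

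Per1 and Per2 also respond to glucocorticoid hormone and to neuronal activity, and 18 genes known for these responses were read from the same fit. All 18 were tested and edgeR called 0, with 5 at an unadjusted p under 0.05, beside 4.32% of all tested genes, and 0 called by DESeq2. The 8 glucocorticoid-induced genes all had negative log2 fold changes, between -0.48 and -0.02, with 0 at an unadjusted p under 0.05, where 51.8% of all tested genes were negative. Of these 8, only 4 were negative with the medium spiny neuron score as a covariate, and 1 without DF-1037 and DF-1062, when the median was 0.21. Sgk1 went from -0.48 to -0.18 and 0.01. Of the 10 immediate early genes 8 were negative, with a median of -0.56. All 10 were negative with the covariate and without the 2 mice, with medians of -0.41 and -0.48 and 0 called. At an unadjusted edgeR p under 0.05 were 5 of the 10 over all mice, 2 with the covariate and 4 without the 2 mice. Npas4, a factor induced by neuronal activity, had an FPKM of 5.23 to 8.33 in WT and 2.74 to 5.53 in 16p11.2+/- mice, which overlapped, and a log2 fold change of -0.96 ± 0.25 (SE). Nr4a1, an orphan nuclear receptor, had 13.1 to 19.9 in WT and 6.66 to 12.7 in 16p11.2+/- mice, with no overlap, as in 2.83% of all tested genes, and -0.73 ± 0.21. Egr2, a zinc finger factor, had 1.46 to 2.82 and 0.249 to 1.30, with no overlap, and -1.33 ± 0.46. Fosb, a partner in the AP-1 factor, had 1.70 to 2.75 and 1.46 to 1.84, which overlapped, and -0.46 ± 0.17. Each had an adjusted p of 0.859 by the same edgeR test. With the medium spiny neuron score as a covariate these values of Npas4, Nr4a1, Egr2 and Fosb were -1.14, -0.61, -1.03 and -0.39, and without DF-1037 and DF-1062 they were -1.31, -0.68, -1.18 and -0.41.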

How the data were processed

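The 8 libraries were 1 per mouse, 4 of each genotype. The authors trimmed and mapped the reads with Hisat2 and deposited raw counts from Htseq-count; they also deposited the FPKM, which equals the count over 1 length per gene and the mouse's total within 0.1% in all genes checked. Submitters' processing notes name Bowtie 0.12.2 and the builds mm8 and mm9 with no role, and the paper names no build, so the build behind the counts is not settled; the strand setting is not given in the sources used here. Positions come from GENCODE M21 (GRCm38), whose exon lengths matched 95.65% of the implied lengths. Deposited columns of the authors' own DESeq2 comparison (group means, fold changes, p-values) and a deposited summary of FPKM in bins were not used.

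The genotypes were compared on counts by edgeR 4.0.16 (R 4.3.3, TMM, filterByExpr with a minimum count of 10 and total of 15, quasi-likelihood test, Benjamini-Hochberg threshold 0.05); the SE came from the fold change and the F statistic. FPKM of single genes was compared by exact two-sided permutation over 70 assignments. Correlations used log2 CPM (prior count 2). Alternatives were DESeq2 1.42.0, limma-trend (limma 3.58.1) on log2 FPKM, other scalings and filters, marker scores as covariates and mice left out. Scripts were checked on simulated counts with known changes. Chi-square per degree of freedom between libraries of 1 genotype was at least 8.83, so none was a repeat of another.

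The 10 clock genes, the other lists and the markers were chosen with earlier results of these data known. Named genes were the 10; from each other list, called genes plus the 4 of smallest p (1 of these is not reported here); and the 5 genes most alike to Dbp and to Arntl. Csnk1d, Npas2 and Nfil3 were named afterwards. The medium spiny neuron covariate and the removal of DF-1037 and DF-1062 were chosen after seeing the data.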

Additional observations from a re-analysis of the deposited data

Results flagged for a closer look

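In 3 of 38 groups of 4 mice examined (clock genes, tissue scores and summary values in each genotype), 1 mouse stood apart by more of the group's range than Dixon's 95% limit, which chance gives in about 1 group in 20. None of the 3 was a clock gene. The thalamus score of WT-1063, 6.24 log2 CPM against 2.96 to 3.06 in the other WT mice, had a gap of 0.969 of the range. The hypothalamus score of WT-1015, -1.99 against -1.42 to -1.30, had a gap of 0.832. This score lay near the floor: Avp, Oxt, Pmch, Hcrt and Six6 had an FPKM of 0 in WT-1015. Only 1 of the 6 genes of the list had enough counts to be tested. The astrocyte score of DF-1018, 7.15 against 7.45 to 7.48, had a gap of 0.897.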

How the results depend on the processing

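No paired analysis was possible because the genotypes share no replicate numbers. None of the 10 clock genes was called under any alternative run, and the smallest adjusted p of a clock gene by edgeR's quasi-likelihood test was 0.631 (Per1 without WT-1063). Of 180 alternative fold changes of the 10 genes, 158 kept a negative sign and 22 were positive; the cause was not tested. Without DF-1037 and DF-1062 the positive values were Per2 0.051, Per3 0.20, Dbp 0.13, Nr1d2 0.014, Arntl 0.063, Ciart 0.12 and Tef 0.20; with the medium spiny neuron score as a covariate they were Per2 0.00082, Per3 0.15, Dbp 0.087, Nr1d2 0.0028, Arntl 0.053, Ciart 0.083 and Tef 0.16. With the thalamus score as a covariate Per3 was 0.14 and Tef 0.11. Without DF-1062 alone, Per3 was 0.089, Nr1d2 0.0030, Arntl 0.048, Ciart 0.042 and Tef 0.048, and without WT-1015 Per3 was 0.011. The fold changes with 1 mouse left out at a time ranged from -0.16 to 0.089 for Per3, -0.13 to 0.0030 for Nr1d2, -0.095 to 0.048 for Arntl, -0.20 to 0.042 for Ciart and -0.20 to 0.048 for Tef.

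Genes called over all tested genes numbered 20, 13 with the thalamus score, 11 without DF-1037 and DF-1062, and 8 to 18 with 1 mouse left out. Clock genes with a negative r to Arntl numbered 0, 3 without the 2 mice farthest from the median (Per2 -0.19, Per3 -0.44, Tef -0.026), 1 without DF-1037 and DF-1062 (Per3 -0.16) and 0 to 1 with 1 mouse left out (r of Per3 ranged from -0.058 without DF-1062 to 0.61). With 4 mice per genotype, the unadjusted 95% interval of Dbp runs from 0.539 to 1.29 times the WT level.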
